A study of Mus musculus with 5 samples.

Results

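The cyclic nucleotide-gated (CNG) and hyperpolarization-activated (HCN) channel genes were followed in olfactory sensory neurons that transcribe *Olfr151*, a mouse odorant receptor gene also called M71. The 9 genes are *Cnga1*, *Cnga2*, *Cnga3*, *Cnga4*, *Cngb1*, *Cngb3*, *Hcn2*, *Hcn3* and *Hcn4*. They were found by name among the 55411 genes of the count tables, and all 9 were present as rows.

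All mice were 7 weeks old and homozygous for the Olfr151tm26Mom allele, a targeted *Olfr151* locus that also makes GFP in the neurons that choose it, so control and exposed animals carried the same reporter. Animals kept singly received DMSO alone (control) or 5% acetophenone in DMSO (exposed) for 5 h, and acetophenone is an odorant that activates this receptor. GFP-positive live cells of the main olfactory epithelium were sorted and pooled over 4 mice per pool, and 3 control pools (1, 2 and 3) and 2 exposed pools (1 and 3) were analysed here. Each pool held 200 sorted cells by the characteristics in the labels, whereas the protocol in the same labels gives 400. The methods of the study give 200 per pool for this mouse line. Library totals lay between 42780403 and 49527380 counts, and 3 counts, taken as the upper limit that a count of 0 allows for counting error, corresponded to 0.0606 to 0.0701 CPM, which are counts scaled to the same library total. Values are always given in the order control pools 1, 2, 3 and then exposed pools 1, 3.

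CNG channels are assemblies of subunits that open when a cyclic nucleotide binds inside the cell. In olfactory cilia, an activated receptor leads through the G protein Golf and adenylyl cyclase 3 to cyclic AMP, which opens a channel of CNGA2, CNGA4 and CNGB1 subunits, and calcium that enters through it then opens a chloride channel and, through calmodulin, closes the CNG channel again. CNGA1 with CNGB1 makes the channel of rods and CNGA3 with CNGB3 that of cones. HCN channels belong to the same superfamily but open on hyperpolarization, and cyclic AMP shifts the voltage at which they do so.

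The sorted cells carried the markers of mature olfactory neurons. *Olfr151* itself had 3212, 3041 and 3596 CPM in the control pools and 2421 and 2327 CPM in the exposed ones. *Omp*, the olfactory marker protein, had 25032, 25366 and 27095 TPM (counts divided by exon length and scaled to the same sum in every pool) in the control pools and 18757 and 18224 TPM in the exposed ones. Of 4 rod and cone markers, *Gnat2* had no count in any pool, and the summed level of the list was 0.943, 1.35, 1.07, 1.16 and 0.592 TPM over the 5 pools, with *Pde6b* the most abundant. Of 4 markers of the GC-D neurons, which use a cyclic GMP pathway with *Cnga3*, *Emx1* had no count and *Gucy2d* did not exceed 0.197 TPM. The list summed to 177, 215, 184, 75.2 and 107 TPM, nearly all of it *Car2*, a carbonic anhydrase.

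The control pools differed from one another in part of the genes, pools 1 and 3 the most. Of 10055 genes tested, 159 were more than 4-fold below both other control pools in pool 3, against 156 in pool 1 and 40 in pool 2. The genes more than 4-fold above both others numbered 32 in pool 3, 71 in pool 1 and 34 in pool 2. *Hcn2* was among the genes low in pool 3, and the HCN values are therefore given with and without that pool.

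The sequences just before the RefSeq starts of the 4 genes that were called lower after exposure are shown because these genes were lower together. Each is the 250 bases before the start, on the strand of the gene, in GRCm38.p6. Capitals mark matches, on either strand, to CCCNNGGG, a core bound by EBF factors of olfactory neurons, to TAATTA or TAATTG, cores of homeodomain sites, or to TGACGTCA, the cyclic AMP response element. The windows are chrX:71991599-71991848 for *Cnga2*, chr7:105404318-105404567 for *Cnga4*, chr8:95306586-95306835 for *Cngb1* on the minus strand and chr9:58822699-58822948 for *Hcn4*.
Cnga2: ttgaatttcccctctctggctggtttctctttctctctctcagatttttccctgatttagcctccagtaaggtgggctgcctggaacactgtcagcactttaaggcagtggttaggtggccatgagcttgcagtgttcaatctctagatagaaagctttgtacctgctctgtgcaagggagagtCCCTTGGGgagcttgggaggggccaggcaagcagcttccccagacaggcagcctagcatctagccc
Cnga4: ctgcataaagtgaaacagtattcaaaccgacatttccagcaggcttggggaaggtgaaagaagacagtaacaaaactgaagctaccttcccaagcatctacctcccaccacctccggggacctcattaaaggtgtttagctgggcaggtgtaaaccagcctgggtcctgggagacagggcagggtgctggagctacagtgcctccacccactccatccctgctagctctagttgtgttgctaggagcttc
Cngb1: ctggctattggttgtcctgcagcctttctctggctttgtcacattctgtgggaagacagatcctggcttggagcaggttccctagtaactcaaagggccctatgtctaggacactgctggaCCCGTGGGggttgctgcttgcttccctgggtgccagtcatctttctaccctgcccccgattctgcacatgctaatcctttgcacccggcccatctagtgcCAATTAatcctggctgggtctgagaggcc
Hcn4: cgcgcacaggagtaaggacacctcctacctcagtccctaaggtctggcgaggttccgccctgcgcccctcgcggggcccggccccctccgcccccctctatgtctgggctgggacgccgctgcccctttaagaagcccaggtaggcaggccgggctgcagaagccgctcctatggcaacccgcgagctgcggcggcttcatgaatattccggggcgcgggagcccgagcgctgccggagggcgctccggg

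The *Cnga2* window held 1 match to CCCNNGGG, at position -66, counting back from the start, where -1 is the base just before it, and the *Cngb1* window held 1 at -129. *Cngb1* also held the reverse complement of TAATTG at -29. The *Cnga4* and *Hcn4* windows held none of the 4 letter patterns. Among the windows not shown, that of *Hcn2* held 3 matches to CCCNNGGG, 2 of them overlapping, and those of *Cnga1* and *Cnga3* held none. Among all 32851 windows of that length in the RefSeq table, 11.8% held CCCNNGGG, 4.84% TAATTA, 7.17% TAATTG and 1.55% TGACGTCA. A match is a description of letters and not a bound site. The table had windows for 7 of the 9 genes.

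The window of *Cngb1* precedes the long transcript of the gene. In GENCODE M21, the long transcript has 6189 bases and starts at position 95306585 of chromosome 8, while the short coding transcript has 3336 bases and starts 24975 bases further in. The short form of the gene is the one known from olfactory neurons. The exon length in the count tables, 9355 bases, joins the exons of all transcripts, and 4077 of these bases lie before the start of the short transcripts. Gene counts do not tell these transcripts apart, so *Cngb1* levels per length depend on which of them the neurons make.

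**Figure D1:**
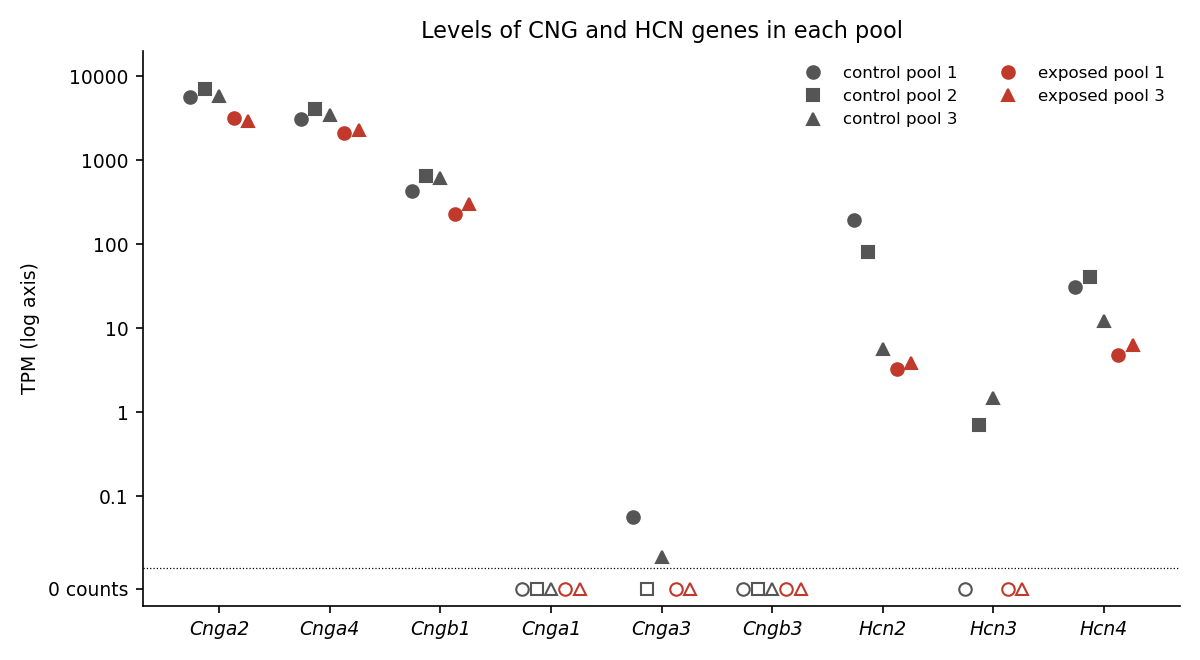
Level of each CNG and HCN gene in each pool, in TPM on a log axis; grey marks are control pools, red marks exposed pools, and open marks below the dotted line are counts of 0. *Cnga2*, *Cnga4* and *Cngb1* are at 231 TPM or more in all pools, whereas *Cnga1* and *Cngb3* have no count in any.

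The olfactory subunits were among the most abundant transcripts of these neurons, and the visual subunits were at or near 0. *Cnga2*, the subunit that forms a channel on its own, ranked 10 by mean control TPM among the 55411 genes, *Cnga4*, a modulatory subunit, ranked 22 and *Cngb1*, the other modulatory subunit, ranked 217. *Cnga2* had 5666, 6936 and 5772 TPM in the control pools and 3187 and 2924 TPM in the exposed ones. *Cnga4* had 3105, 4111 and 3477 TPM in the control pools and 2102 and 2282 TPM in the exposed pools. *Cngb1* had 432, 645 and 605 TPM in the control pools and 231 and 301 TPM in the exposed pools. In each of these subunits the highest exposed pool was under the lowest control pool.

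*Cnga1*, the rod subunit, and *Cngb3*, the cone modulatory subunit, had 0 counts in every pool. A count of 0 allows up to 0.0329 to 0.0358 TPM of *Cnga1*, depending on the pool, and 0.0442 to 0.0481 TPM of *Cngb3*. Per length and against 3 counts in each pool, *Cnga2* was at least 81737-fold higher than *Cnga1* and at least 60822-fold higher than *Cngb3*, in each case in exposed pool 3, where the bound was lowest. *Cnga3*, the cone subunit, had 3 counts in control pool 1, 1 in control pool 3 and 0 in the others. The olfactory subunits therefore made up 99.9994% of the summed CNG level in control pool 1, 99.9998% in control pool 3 and all of it in the other pools.

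The HCN genes were far less abundant. *Hcn2* had 193, 79.7 and 5.73 TPM in the control pools and 3.25 and 3.85 TPM in the exposed ones. *Hcn4* had 31.1, 41 and 12.2 TPM in the control pools and 4.76 and 6.29 TPM in the exposed pools. *Hcn3* had 0, 40 and 81 counts in the control pools and 0 in both exposed pools, which is 1.46 TPM at most, and 711 of its 4154 exonic bases overlap *Pklr* on the opposite strand. Because reads were counted without strand, those few reads cannot be assigned with certainty. No other gene of the 9 shares exonic bases with a neighbour.

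In the control pools, the order of mean TPM was *Cnga2*, *Cnga4*, *Cngb1*, *Hcn2*, *Hcn4*, *Hcn3* and *Cnga3*, followed by *Cnga1* and *Cngb3* at 0. The control ranges of *Cnga2*, *Cnga4*, *Cngb1* and *Hcn2* did not overlap one another. Those of *Hcn2* and *Hcn4* overlapped. Within the exposed pools the order of these genes was the opposite, with *Hcn4* above *Hcn2* in both pools, as it also was in control pool 3.

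The genes lie on separate chromosomes (GRCm38): *Cnga2*, ENSMUSG00000005864, at chrX:71991849-72010218 on the plus strand, *Cnga4*, ENSMUSG00000030897, at chr7:105404568-105408742 on the plus strand, and *Cngb1*, ENSMUSG00000031789, at chr8:95239045-95306585 on the minus strand. *Hcn2*, ENSMUSG00000020331, lies at chr10:79716634-79736108 and *Hcn4*, ENSMUSG00000032338, at chr9:58823412-58863175, both on the plus strand. *Cnga1*, ENSMUSG00000067220, is at chr5:72603696-72644275 on the minus strand, *Cnga3*, ENSMUSG00000026114, at chr1:37214434-37263384 and *Cngb3*, ENSMUSG00000056494, at chr4:19280850-19510623, both on the plus strand. *Hcn3*, ENSMUSG00000028051, is at chr3:89146074-89160196 on the minus strand. Counts cover the exons of each gene, untranslated parts included.

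The response to acetophenone was then compared between exposed and control pools. Of the 9 genes, 5 reached the count threshold of 140 in every pool of at least 1 condition and were tested, and 4 of them were downregulated: *Cnga2*, *Cnga4*, *Cngb1* and *Hcn4*. None was upregulated. A gene was called by edgeR's quasi-likelihood test when the Benjamini-Hochberg adjusted p was under 0.1 and the absolute log2 fold change above 0.5, and of all genes tested 1.85% were called lower and 3.42% higher. The exposed pools lay below all control pools in all 5 tested members, against 19.6% of all genes tested, and above them in none, against 20.3%. With a block for the pool number added to the fit, none of these 4 calls remained. Control pool 2 has no exposed partner in that fit, so the conditions were compared within pools 1 and 3 only, with less power. The log2 fold changes were then -0.78 for *Cnga2*, -0.46 for *Cnga4*, -0.83 for *Cngb1* and -1.7 for *Hcn4*. The edgeR adjusted p was 0.144 for *Cnga2*, 0.232 for *Cnga4*, 0.15 for *Cngb1* and 0.365 for *Hcn4*. Log2 fold changes refer to TMM-scaled CPM, in which the median of all genes was -0.026. A lower level in a pool of sorted cells may reflect fewer cells that carry a transcript or less of it per cell, and these cannot be told apart in bulk RNA.

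*Cnga2* had 5447, 5914 and 5150 CPM in the control pools and 3319 and 2869 CPM in the exposed ones. The 2 groups did not overlap, and the log2 fold change was -0.83 (SE 0.12, 95% interval -1.12 to -0.55, edgeR adjusted p = 0.0193). *Cngb1* had 1254, 1663 and 1631 CPM in the control pools and 726 and 893 CPM in the exposed pools, with a log2 fold change of -0.91 (SE 0.17, edgeR adjusted p = 0.0484). *Cnga4* had 2568, 3016 and 2669 CPM in the control pools and 1883 and 1926 CPM in the exposed pools, and its log2 fold change of -0.53 (SE 0.12, edgeR adjusted p = 0.0731) was just past the fold threshold. The lowest control pool was above the highest exposed pool for all 3. *Omp* was also lower in both exposed pools, by less and without a call (log2 fold change -0.32, SE 0.10, edgeR adjusted p = 0.164). The 5 markers of mature neurons, *Stoml3* the most abundant, summed to 59726, 64411 and 63002 TPM in the control pools and 51519 and 51036 TPM in the exposed ones. The part of this difference in the CNG values was not tested.

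These calls rested on both exposed pools. In edgeR fits without exposed pool 1, the adjusted p was 0.109 for *Cnga2*, 0.377 for *Cnga4* and 0.333 for *Cngb1*, and without exposed pool 3 it was 0.128, 0.215 and 0.132, where the lone exposed pool is assumed to vary like the controls. Without control pool 2 *Cnga4* and *Cngb1* were not called (edgeR adjusted p = 0.178 and 0.15), and without control pool 3 *Cnga4* was not (0.117). With filterByExpr, edgeR's own filter on low counts, neither *Cnga4* nor *Cngb1* was called (edgeR adjusted p = 0.16 and 0.139), and with no threshold on counts *Cnga4* was not (-0.51, edgeR adjusted p = 0.135). The log2 fold changes stayed between -0.95 and -0.76 for *Cnga2*, -0.57 and -0.45 for *Cnga4* and -1.09 and -0.78 for *Cngb1* whichever pool was left out. Scaled to the ERCC spike-in RNA added to each lysate in place of TMM, *Cnga2* had -1.08, *Cnga4* -0.77 and *Cngb1* -1.13, and none was called (edgeR adjusted p = 0.9996 for each), while the median of all genes moved to -0.23. The spike-ins made up 0.631%, 0.249% and 0.332% of the control counts and 0.542% and 0.306% of the exposed counts.

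**Figure D2:**
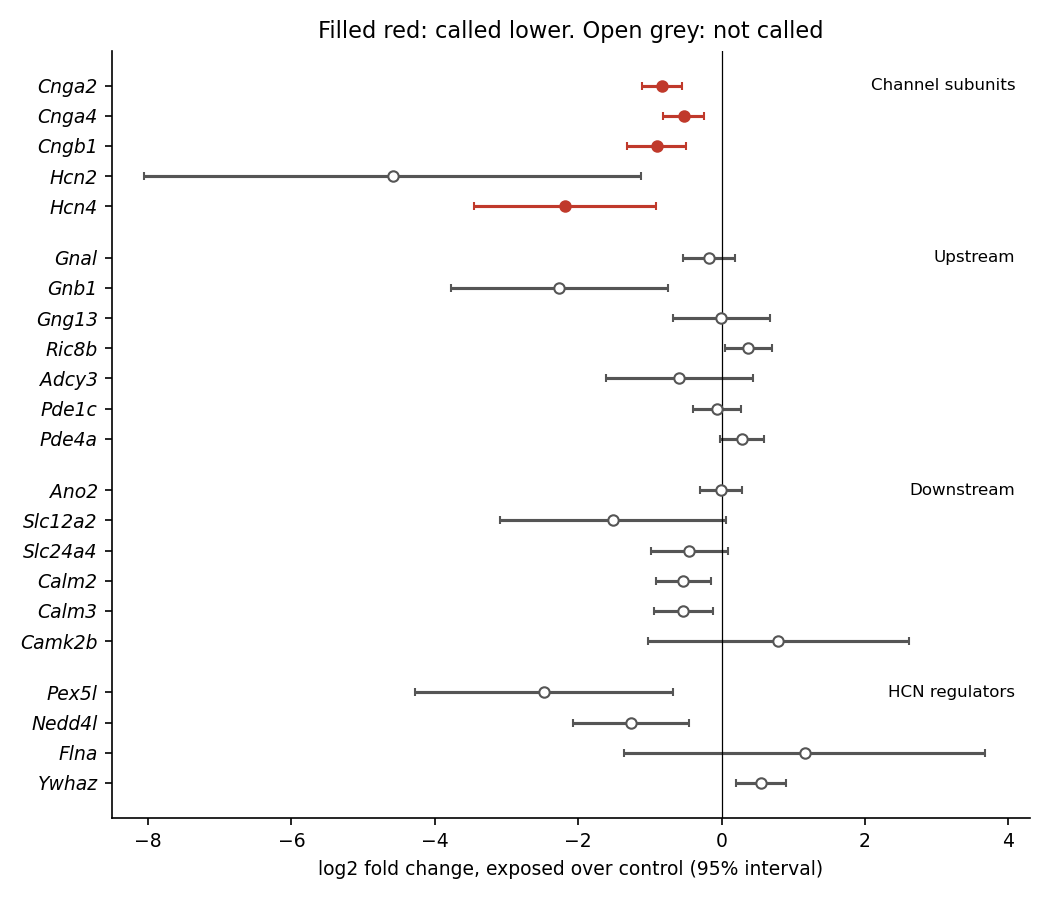
Log2 fold change of exposed over control pools with its 95% interval, from the edgeR fit, for the tested channel genes and for genes of the transduction cascade and HCN regulators. Red filled marks are genes called lower, which are *Cnga2*, *Cnga4*, *Cngb1* and *Hcn4*; no gene plotted was called higher.

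*Hcn4*, the slowest of the HCN channels and the main one of the cardiac pacemaker, had the largest drop of the 4 called members. It had 59, 69.1 and 21.5 CPM in the control pools and 9.79 and 12.2 CPM in the exposed ones. The groups did not overlap, but control pool 3 lay closer to the exposed pools than to the other control pools. The log2 fold change was -2.18 (SE 0.53, 95% interval -3.45 to -0.92, edgeR adjusted p = 0.0956), and it was -2.52 without control pool 3 (edgeR adjusted p = 0.0142). The call was lost without control pool 1 (edgeR adjusted p = 0.18), control pool 2 (0.222), exposed pool 1 (0.467) or exposed pool 3 (0.248). It was also lost with spike-in scaling (0.22), with edgeR's filterByExpr in place of the count threshold (0.201) and at an adjusted p of 0.05.

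*Hcn2*, an HCN subunit widely made in the brain, had 192, 70.2 and 5.28 CPM in the control pools and 3.5 and 3.9 CPM in the exposed ones. Control pools 1 and 2 were high, and control pool 3 was near the exposed pools. Its log2 fold change was -4.59 (SE 1.43, 95% interval -8.06 to -1.12) and it was not called in the fit of all pools (edgeR adjusted p = 0.168). Without control pool 3 the log2 fold change was -5.12 and the gene was called (edgeR adjusted p = 0.00903), and DESeq2 called it in all 5 pools (-4.57, adjusted p = 0.0177). Without control pool 1 the log2 fold change was -3.34 and the gene was not called (edgeR adjusted p = 0.27).

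*Pex5l* and the erythroid markers were, like *Hcn2*, higher in control pools 1 and 2 than in the other pools. *Pex5l*, which encodes TRIP8b, an auxiliary subunit of HCN channels, had 65.9, 60 and 11.8 TPM in the control pools and 7.42 and 7.38 TPM in the exposed ones, with a log2 fold change of -2.48 that was not called (edgeR adjusted p = 0.159). Of the 3 erythroid markers, *Hbb-bs*, a beta globin gene and the most abundant, had 932, 323 and 37.6 TPM in the control pools and 38.6 and 15.2 TPM in the exposed pools, so that exposed pool 1 was level with control pool 3. None of the 3 was at 0 in all pools, and their sum was 1215, 442, 48.2, 46.8 and 21.8 TPM. The 5 sustentacular markers summed to 412, 357 and 89.1 TPM in the control pools and 258 and 134 TPM in the exposed pools. *Cyp2a5* was the most abundant of them. Within that list *Cyp2g1* and *Ermn* were highest in exposed pool 1, at 109 and 5.85 TPM. *Cyp2g1* was lowest in exposed pool 3, at 24.2 TPM beside 28.1 TPM in control pool 3. *Cyp2a5* and *Cyp1a2* were highest in control pool 2, at 173 and 21.1 TPM, and *Sult1c1* in control pool 1, at 164 TPM. The part of erythroid or sustentacular cells in the *Hcn2* and *Hcn4* values was not tested.

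**Figure D3:**
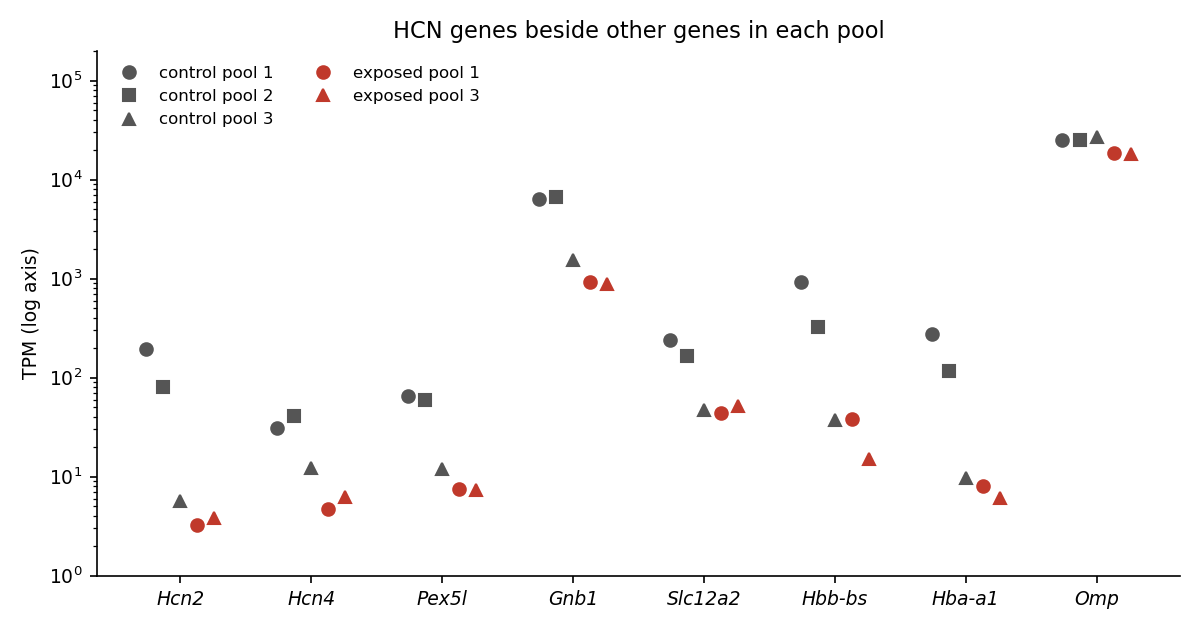
Level in each pool, in TPM on a log axis, of *Hcn2* and *Hcn4* beside *Pex5l*, *Gnb1*, *Slc12a2*, the globin genes *Hbb-bs* and *Hba-a1*, and *Omp*; grey marks are control pools and red marks exposed pools. Control pool 3 (grey triangle) lies nearer to the exposed pools than to the other control pools for all genes shown but *Omp*.

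The proportions of the subunits were compared within each pool, where library scaling cancels. Per exon length, the ratio of *Cnga2* to *Cnga4* was 1.82, 1.69 and 1.66 in the control pools and 1.52 and 1.28 in the exposed ones. The groups did not overlap, with means of 1.72 ± 0.0885 (SD, n = 3) and 1.4 ± 0.166 (SD, n = 2) and a difference of -0.31 on the log2 scale. With each pool left out in turn, that difference ranged from -0.43 without exposed pool 1 to -0.18 without exposed pool 3. The two-sided exact permutation test gave p = 0.1, the smallest that 3 against 2 pools allow, and 0.267 after adjustment over the 4 ratios.

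The ratio of *Cnga4* to *Cngb1* was 7.19, 6.37 and 5.75 in the control pools and 9.12 and 7.58 in the exposed pools, again without overlap (log2 difference 0.37, exact permutation p = 0.2, adjusted 0.267). With each pool left out in turn, that difference ranged from 0.24 without exposed pool 1 to 0.51 without exposed pool 3. The ratio of *Cnga2* to *Cngb1* was 13.1, 10.8 and 9.54 in the control pools and 13.8 and 9.72 in the exposed pools. These overlapped, and the log2 difference of 0.07 had an exact permutation p of 0.7. Its sign was negative without control pool 3 (-0.04) or exposed pool 1 (-0.18). No exact permutation test of a ratio could pass 0.05 in this design.

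Because *Cngb1* has a long and a short form, its ratios depended on the length used. With the longest coding transcript of each gene, the control mean of *Cnga2* to *Cngb1* was 7.44 in place of 11.1, with the short *Cngb1* transcript it was 4.01, and with counts alone 3.69. The corresponding means of *Cnga4* to *Cngb1* were 4.57, 2.46 and 1.83 in place of 6.44. *Cnga2* to *Cnga4* moved less, to 1.63 with the longest transcripts and 2 with counts. A length that is the same in all pools leaves the differences between conditions of these ratios as they are. As shares of the summed level of the 3 subunits per exon length, *Cnga2* made up 59.8% ± 1.56 of the control level (SD, n = 3) and 55.4% ± 3.28 of the exposed level (SD, n = 2), *Cnga4* 34.7% ± 0.86 and 39.8% ± 2.37, and *Cngb1* 5.45% ± 0.727 and 4.82% ± 0.911. With the short transcript, the share of *Cngb1* was 13.5% ± 1.65 and 12% ± 2.09.

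**Figure D4:**
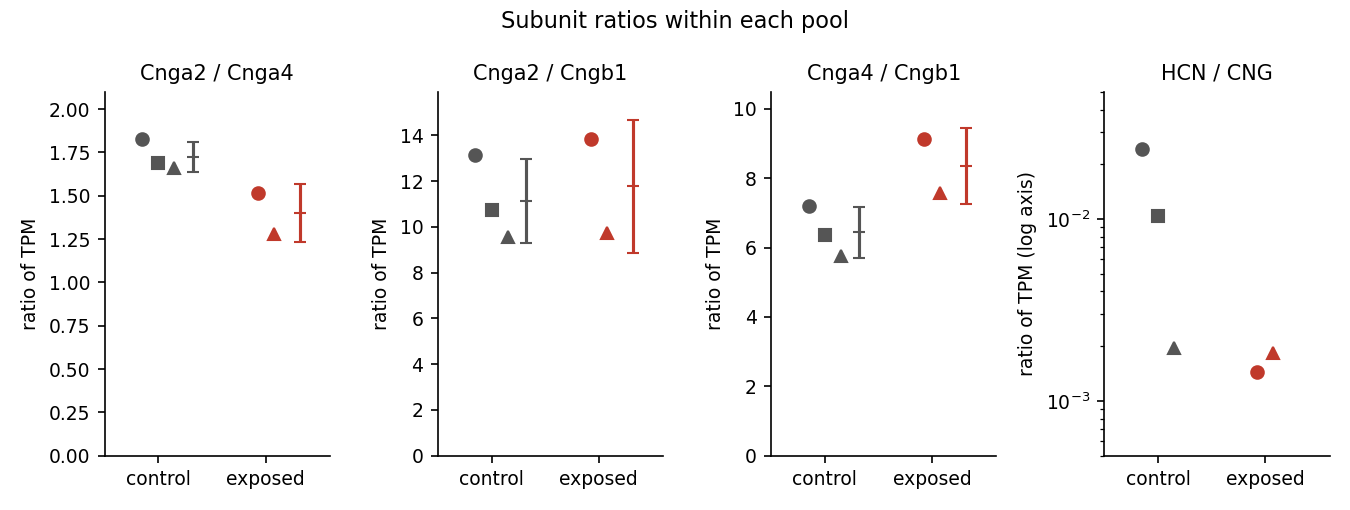
Ratio of TPM between subunits within each pool (circle pool 1, square pool 2, triangle pool 3; control grey, exposed red); bars beside the points are the mean and SD, and the HCN to CNG panel has a log axis and no bars. The exposed pools lie below the control pools for *Cnga2* to *Cnga4* and above them for *Cnga4* to *Cngb1*, and they overlap for *Cnga2* to *Cngb1*.

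The summed HCN members reached 0.0244, 0.0104 and 0.00197 of the summed CNG members in the control pools and 0.00145 and 0.00184 in the exposed ones. Control pool 3 was just above the exposed pools, and the log2 difference was -2.28 (exact permutation p = 0.2, adjusted 0.267). It was -3.28 without control pool 3 and -1.47 without control pool 1.

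The other steps of the cascade were described from lists of genes. Of 5 genes upstream of the channel, none was called. *Gnal*, the alpha subunit of Golf, had a log2 fold change of -0.17 and *Gng13*, its gamma subunit, of 0. *Ric8b*, an exchange factor for Golf, had 0.37, with both exposed pools above all control pools in CPM. *Adcy3*, the adenylyl cyclase, had 2776, 4319 and 3331 TPM in the control pools and 1020 and 3134 TPM in the exposed ones, so that exposed pool 1 was low (log2 fold change -0.59, edgeR adjusted p = 0.504). *Gnb1*, the beta subunit, had 6323, 6625 and 1533 TPM in the control pools and 916 and 883 TPM in the exposed pools, with control pool 3 nearer to the exposed pools (log2 fold change -2.26, edgeR adjusted p = 0.135).

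Neither gene of cyclic AMP breakdown was called: *Pde1c*, the calcium-dependent phosphodiesterase of the cilia, had a log2 fold change of -0.07 and *Pde4a*, another cyclic AMP phosphodiesterase, of 0.29. For *Pde4a* both exposed pools lay above all control pools in CPM. Of 6 genes downstream of the channel none was called. *Ano2*, the calcium-activated chloride channel, had 1341, 1756 and 1406 TPM in the control pools and 1329 and 1315 TPM in the exposed pools, a log2 fold change of -0.01. *Calm2* and *Calm3*, which encode calmodulin, had log2 fold changes of -0.53 and -0.54 (edgeR adjusted p = 0.152 and 0.171), the groups not overlapping. *Slc12a2*, the chloride loader, had -1.51 (edgeR adjusted p = 0.277) with control pool 3 at 46.8 TPM beside 44.1 and 51.3 TPM in the exposed pools. *Slc24a4*, the calcium extruder, had -0.45 and *Camk2b*, a calmodulin kinase, 0.79 at 1.59 TPM or less.

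Of 9 genes for transport of receptors and channels to the cilia, 1 was called. *Rtp1*, a chaperone that brings odorant receptors to the membrane, was downregulated, with 1793, 2243 and 2227 TPM in the control pools and 802 and 965 TPM in the exposed pools (log2 fold change -1.07, SE 0.13, edgeR adjusted p = 0.00991). Of 7 HCN regulators, 4 were tested and none was called. Among the markers of cell types, *Gap43*, which marks immature neurons, was upregulated (log2 fold change 0.94, edgeR adjusted p = 0.0893) and *Car2* was downregulated (-0.92, edgeR adjusted p = 0.0708). *Gap43* was 1 of 4 markers of immature neurons, and the others were not called: *Gng8* had a log2 fold change of 1.13, *Stmn2* of 0.19 and *Dcx* of -0.90 (edgeR adjusted p = 0.24, 0.589 and 0.116). The 6 myeloid markers, *Lyz2* the most abundant and none at 0 in all pools, summed to 301, 55.6 and 38 TPM in the control pools and 277 and 121 TPM in the exposed ones. Of these, 3 were tested and none was called, but *Tyrobp* had 59.7, 13.6 and 7.54 TPM in the control pools and 107 and 90.2 TPM in the exposed ones, and *Ptprc* did not exceed 0.217 TPM in the control pools and had 2.05 and 2.13 TPM in the exposed ones. The other members, *Lyz2*, *C1qa*, *C1qb* and *Csf1r*, were each highest in control pool 1, at 153.5, 36, 41 and 11.1 TPM. Exposed pool 1 came next for *Lyz2*, *C1qa* and *Csf1r*, at 130.1, 24.2 and 9.46 TPM. For *C1qb* it was control pool 2, at 5.13 TPM, with exposed pool 1 at 4.52 TPM. The part of myeloid cells in the levels of the channel genes was not tested.

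The profiles most like those of *Cnga2* and *Hcn4* were sought over the 5 pools, among all genes tested, by the root mean square difference of centred log2 CPM. For *Cnga2* they were *Tcp11l2* (0.045), *Acp2* (0.0469) and *Uros* (0.0731). For *Hcn4* they were *Mcm9* (0.0985), *Ldb1* (0.127) and *Suz12* (0.136), all with control pools 1 and 2 high and control pool 3 between them and the exposed pools. As 5 pools allow many genes to share a profile, the lists are a description.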

How the data were processed

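FACS-sorted pools were sequenced as 50-base reads after 12 cycles of cDNA amplification with SMARTer and Nextera XT. Per the submitters' processing notes, the authors used STAR 2.7.0a, featureCounts 1.6.3 and GRCm38, and the deposited values are raw counts of reads per gene, summed over exons, with the exon length. Reads were counted without strand. Samples were grouped from their labels; exposed pool 2 was not analysed here. Genes were named through GENCODE M21 (55144 of 55411).

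Counts were analysed with edgeR 4.0.16 (TMM, robust quasi-likelihood) on all 5 libraries with condition as the only factor, at a threshold of 140 counts, the trough between the modes of the log2 counts. The test was checked on simulated data. The SE of a log2 fold change is the one implied by the test statistic. TPM and ratios were computed per exon length, with spike-in rows left out, and ratios were compared by exact permutation. A pool of 4 mice is 1 replicate, and PCR copies were not removed by molecular identifiers, so count limits cover counting error only. Alternatives were DESeq2 1.42.0, its size factors, spike-in scaling, other filters, an adjusted p of 0.05, no robust estimation, a block for the pool number, each pool left out and other lengths. All 9 members, the genes upstream and downstream of the channel and of cyclic AMP breakdown, any called gene of the other lists, and the 3 nearest profiles to *Cnga2* and *Hcn4* were named; *Pex5l* and the marker genes are named to give their levels beside the channel genes, a choice made with their values in view. The members and lists were chosen with earlier results of these data known. Some genes that the rule or the lists select are not reported here.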

Additional observations from a re-analysis of the deposited data

How the results depend on the processing

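The 5 tested members kept a negative log2 fold change under all 13 alternatives, but the number called lower moved from 4 with all pools in edgeR. It was 1 with spike-in scaling (*Hcn2*), 1 with filterByExpr (*Cnga2*), 2 at an adjusted p of 0.05, 3 with no threshold on counts and 0 with the replicate block. DESeq2 called 5. When each pool was left out in turn, it ranged from 0 to 4. No member was called higher under any alternative. Among all genes, those called higher and lower numbered 725 and 769 with DESeq2, 94 and 49 with spike-in scaling, 162 and 74 with filterByExpr and 190 and 90 at an adjusted p of 0.05. When each pool was left out in turn, 93 to 348 genes were called higher and 19 to 429 lower. The cause of these shifts was not tested.

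The labels say that the mice were handled over 3 consecutive days, with 4 of each condition on each day. Control and exposed pools share numbers, but the labels do not tie a number to a day. Deviations from the group means correlated by 0.0238 for pools 1 and by -0.0692 for pools 3. These values cannot show whether the numbers pair the pools. A gene's deviation in exposed pool 1 is the negative of that in exposed pool 3, the only other exposed pool analysed. Control pool 1 thus had -0.0238 with exposed pool 3, and control pool 3 had 0.0692 with exposed pool 1. Each pool held 4 mice, so a pool of each condition per day is possible. The main fit left the pool number out, and pairing was not tested. With the replicate block, 11 genes were called higher and 0 lower, and edgeR's adjusted p was 0.144 for *Cnga2*, 0.232 for *Cnga4*, 0.15 for *Cngb1* and 0.365 for *Hcn4*. *Hcn2*, not called either way, had a log2 fold change of -3.13 with it (0.516). Whether pools of the same number share a day is unknown, so an effect of day on these calls was not tested.

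The log2 difference of *Cnga2* to *Cngb1* turned to -0.0357 without control pool 3 and to -0.185 without exposed pool 1, and ranged up to 0.324 when the other pools were left out. Coding lengths from RefSeq proteins were not run. The transcript lengths of GENCODE were used in their place, chosen after the data were seen. Without a count threshold, *Hcn3* had a log2 fold change of -8.25 (edgeR adjusted p = 0.585), which depends on the prior count. With 2 exposed pools, the spread of the exposed group rests on 1 difference per gene.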
